A study of Mus musculus with 2 samples.

Results

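Myb binding at the genes of the proteasome was examined in a Myb ChIP-Seq peak list. The members were the protein-coding genes of GENCODE vM21 whose symbols begin with Psma, Psmb, Psmc, Psmd, Psme, Psmf or Psmg followed by a digit. There were 50 of them among 21938 protein-coding genes outside the mitochondrial chromosome, and 61 of the 25793 peaks had their summit within 3 kb of a transcript start of a member. The rule itself reads gene symbols and no measured value, though the gene family was picked with earlier results of these data known.

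Myb-bound genes of normal progenitors were needed in a study of p300 loss, and were mapped in WT mice. In that study, WT meant mice with a floxed p300 gene and no Cre, which were among those injected with poly(I:C). The study's methods for the Myb libraries do not restate this treatment. Whether it changed Myb binding, at the interferon-induced members or elsewhere, was not tested. Bone marrow was depleted of mature lineages by a kit, which left Lin- cells of over 80% purity, rich in stem and progenitor cells, and 1 µg of sonicated chromatin was precipitated with 1.5 µg of antibody, either against the transcription factor Myb or normal rabbit IgG. The adapters were inserted by Tn5 transposase on the beads, and the 2 libraries were amplified for 12 cycles and read single-end. The peaks come from 1 Myb library with 1 IgG library as background and there was no replicate, so the values carry no estimate of the spread between mice or precipitations. The list itself gives no measure of which cell types the Lin- fraction held, and the cell type label could not be checked against marker genes.

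The proteasome is the large protease of the cytosol and nucleus that degrades proteins tagged with ubiquitin. Its 20S core is a barrel of alpha subunits, which gate the entrance, and beta subunits, of which Psmb5, Psmb6 and Psmb7 carry the catalytic sites. The 19S regulatory particle caps the core, with an ATPase ring (Psmc) that unfolds substrates and non-ATPase subunits (Psmd) that bind and remove ubiquitin. In blood cells and after interferon, Psmb8, Psmb9 and Psmb10 take the place of the constitutive catalytic subunits and form the immunoproteasome, which shapes the peptides shown on MHC class I. Myb is a DNA-binding activator of genes of immature blood cells.

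The DNA at 2 member summits is shown because these were the 2 of 15 peaks of 20S core genes that held the Myb consensus near the summit. The consensus was CAACNG or TAACNG with the N being G or T, read on both strands within 50 bp of the summit, and capitals mark it. Both windows are in mm10 (GRCm38) and were read 5′ to 3′ on the plus strand. The Psma6 window lay at chr12:55398554-55398654, in an intron of a longer Psma6 transcript and 171 bp upstream of the nearest start. The Psmb3 window lay at chr11:97702439-97702539, 910 bp upstream of Psmb3, and its summit was inside a tRNA-Asn gene of the RefSeq annotation, n-TNgtt8 (chr11:97702449-97702522, minus strand), so that most of the bases shown are those of the tRNA gene. In the Psmb3 window the consensus is on the minus strand.
Psma6: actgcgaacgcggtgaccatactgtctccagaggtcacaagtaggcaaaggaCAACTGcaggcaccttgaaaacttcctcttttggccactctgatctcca
Psmb3: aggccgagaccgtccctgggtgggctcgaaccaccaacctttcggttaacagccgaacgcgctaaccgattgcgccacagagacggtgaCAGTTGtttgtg

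A promoter peak, meaning a summit within 3 kb of any annotated transcript start, was found at 41 of the 50 members, or 82% (exact 95% binomial interval 68.6 to 91.4, which covers counting error only). The share over all protein-coding genes was 39.9%. Most members (40 of 50) have a CpG-rich start, defined as a G+C content of at least 50% and an observed-to-expected CpG ratio of at least 0.6 in the 1000 bp around a start. Of the CpG-rich genes as a whole, 63.9% had a promoter peak, and of the CpG-rich members 35 of 40 did, which is 87.5% (73.2 to 95.8). Among the CpG-poor members, Psmb6, Psmb8, Psmb10, Psma8, Psme1 and Psme2 had a peak and Psmb11, Psmd10, Psme2b and Psmg4 had none. This made 6 of 10, or 60% (26.2 to 87.8), beside 16.1% of all CpG-poor genes. Several were near the cutoff. The highest ratios of Psma8 (0.587), Psmb8 (0.58) and the unbound Psmg4 (0.595) were just below 0.6. Psmb6 reached a ratio of 0.668 and failed on G+C content. Members also had more annotated starts than other genes, with a median of 5 against 3. With the most upstream start of each gene alone, 39 members had a peak, beside 36.5% of all genes.

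Within 500 bp of a start, 36 members had a summit, or 72% (57.5 to 83.8), beside 31.8% of all genes and 53.1% of CpG-rich genes. The share fell to 20 of 50, or 40% (26.4 to 54.8), when only peaks whose −log10 q-value reached 5 were counted. At that threshold 24.3% of all genes and 40.1% of CpG-rich genes had a peak, and the CpG-rich members stood at 17 of 40, or 42.5% (27 to 59.1). The members therefore lay above the CpG-rich genes in the full peak list and level with them, within counting error, among its stronger peaks.

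**Figure D1:**
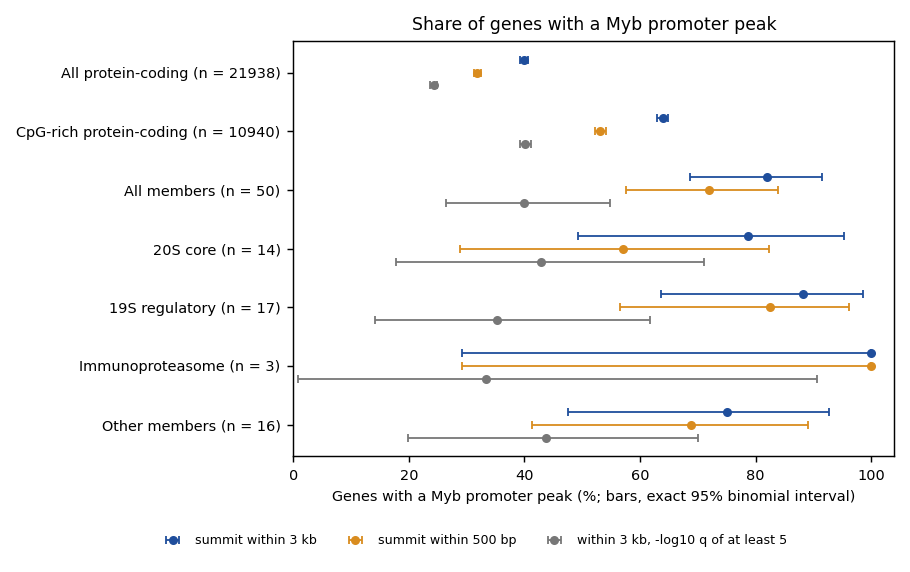
Share of genes (x axis, %) with a Myb promoter peak for all protein-coding genes, CpG-rich genes, all members and the member groups, with the number of genes in parentheses. Points are shares and bars exact 95% binomial intervals; at 3 kb the members (82%) lie above all genes (39.9%) and CpG-rich genes (63.9%), and where the −log10 q-value had to reach 5 (40%) they lie beside the CpG-rich genes (40.1%).

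The peaks of the members were of ordinary height. Fold enrichment is the ratio of the Myb pileup to the local IgG background at the summit, as the authors' peak caller gave it. The values matched this ratio with a fixed count added to both terms, which lowers it most where the background is small. Fold enrichment ranged from 2.05 to 13.8 over the 61 peaks. The median was 4.31 (exact interval 4.1 to 5.25), beside 4.54 (4.5 to 4.6) over the 13250 promoter peaks of all protein-coding genes. The strongest peak of each bound member had a median of 4.69 (4.18 to 5.75), beside 5.25 (5.21 to 5.29) for all bound genes and 5.39 (5.28 to 5.43) for the CpG-rich ones. A median of 19 Myb reads lay at the summit, with a range from 12 to 51, as worked out for each peak from its enrichment and p-value. Such a count is coarse: 19 reads have an exact Poisson 95% interval of 11.4 to 29.7, so peaks of neighboring heights cannot be ranked. The read intervals also leave out the noise of the IgG background, which enters each fold. Below, the strongest or highest peak is the one with the largest fold. Of the 41 bound members, 15 had 2 or more promoter peaks (36.6%, beside 44.9% of all bound genes).

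**Figure D2:**
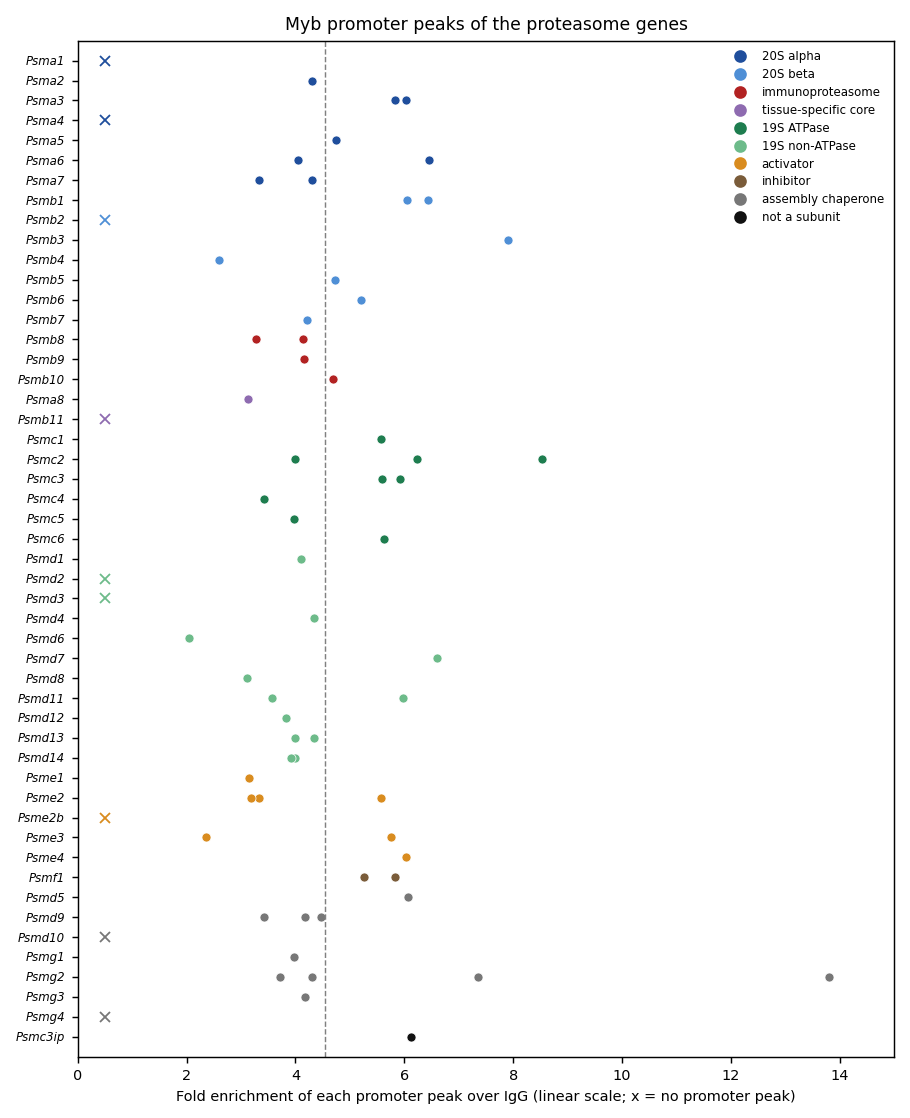
Fold enrichment over IgG (x axis, linear scale) of each promoter peak of the 50 members (rows, grouped and colored by role), with a cross for a member without one. The dashed line is the median of all protein-coding promoter peaks, 4.54; peaks of core, 19S and assembly genes lie on both sides of it, and 1 Psmg2 peak at 13.8 stands apart.

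Summits lay close to the starts, at a median of 228 bp (136 to 407), beside 366 bp (352 to 380) over all promoter peaks. The distance was to the nearest annotated start, of which members had a median of 5, against 3 for all genes. It was not computed from the most upstream start alone. Of the 61 summits, 41 were within 500 bp (67.2%, beside 56.6%). They fell on both sides, with 31 upstream and 30 downstream of the nearest start of the member. In the annotation, 22 summits were in introns, 15 upstream of a gene or intergenic, 9 in 5′ UTRs, 7 in coding exons, 6 in noncoding exons and 2 in 3′ UTRs. Another protein-coding gene had a start within 3 kb of the same summit at 21 of the 61 peaks, and at 9 peaks that other gene's start was the nearer one. When each peak was given to its nearest gene alone, 38 members kept a peak, beside 35.8% of all genes.

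**Figure D3:**
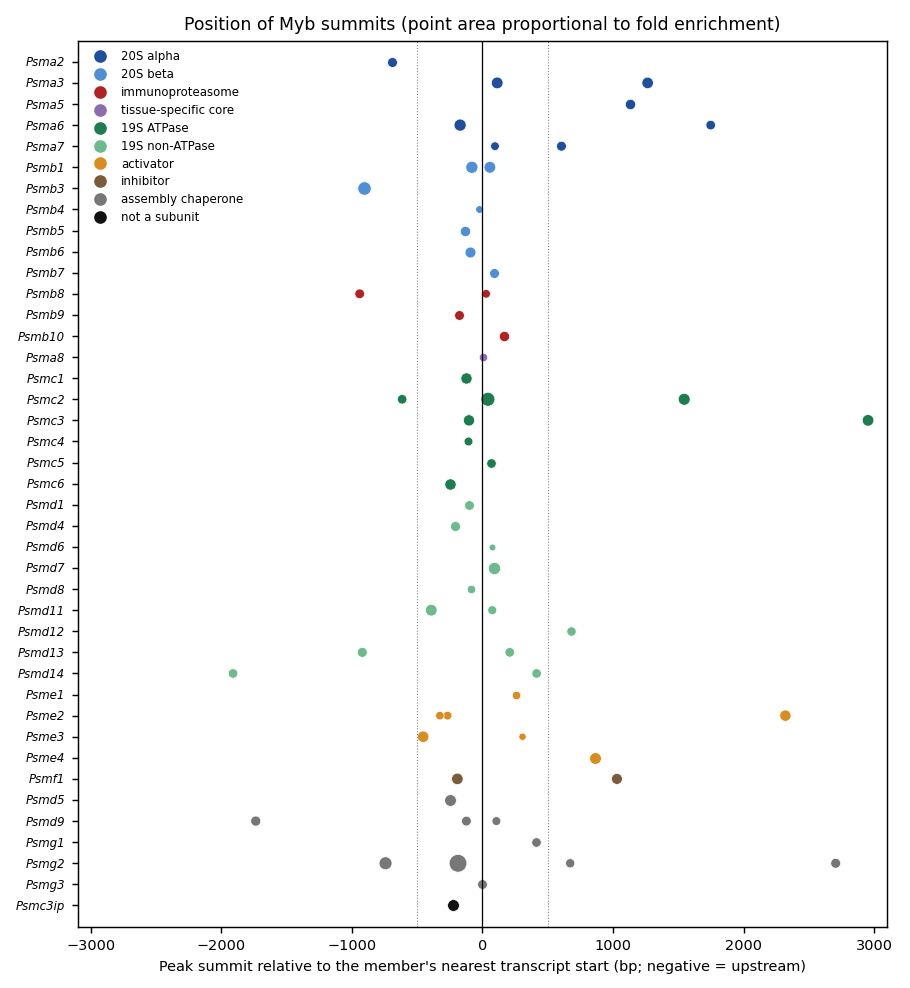
Position of each Myb summit relative to the nearest transcript start of the member (x axis, bp, negative upstream) for the 41 members with a promoter peak, colored by role, with point area proportional to fold enrichment. Most points (41 of 61) fall between the dotted lines at 500 bp on either side, and the outermost is a Psmc3 summit at 2953 bp.

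Of the 14 genes of the constitutive 20S core, 11 had a promoter peak, or 78.6% (49.2 to 95.3). Among the alpha subunits, 5 of 7 were bound and Psma1 and Psma4 were not. Psma6 had the strongest alpha peak, at chr12:55397834-55399989, with a fold enrichment of 6.45 from 49 reads (36.3 to 64.8), and another of 4.04 from 14 reads at chr12:55400331-55400733, 1748 bp downstream. Psma3 had 2 peaks of nearly equal height in introns. One, at chr12:70974314-70975716, was of 6.03-fold from 31 reads (21.1 to 44) at 113 bp downstream, and the other, at chr12:70975804-70976137, of 5.82-fold from 21 reads (13 to 32.1) at 1265 bp downstream. Psma7 had 2 peaks, 4.31-fold from 15 reads (8.4 to 24.7) at chr2:180041441-180042078 and 3.33-fold from 16 reads (9.15 to 26) at chr2:180042165-180042961, 605 and 96 bp downstream. Psma5, with 4.74 at 1127 bp downstream, and Psma2, with 4.3 at 692 bp upstream, had 1 peak each. The Psma2 summit was nearer to the start of Mrpl32, at 467 bp.

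Of the constitutive beta subunits, 6 of 7 were bound and Psmb2 was not. The catalytic genes had summits close to their starts and of middling height. Psmb5, the chymotrypsin-like subunit, had a peak at chr14:54618073-54618519 of 4.72-fold from 24 reads (15.4 to 35.7), 136 bp upstream. Psmb6, the caspase-like subunit, had one at chr11:70525084-70525469 of 5.21-fold from 19 reads, 96 bp upstream. Psmb7, the trypsin-like subunit, had one at chr2:38643663-38644145 of 4.21-fold from 14 reads (7.65 to 23.5), 89 bp downstream in an intron. These intervals overlap, and the reads do not order the 3 genes. Of the noncatalytic genes, Psmb3 had the highest enrichment among promoter peaks of the core, 7.9-fold from 30 reads (20.2 to 42.8), at the tRNA gene described above. Psmb1 had 2 peaks near different starts. One, at chr17:15497867-15499049, was of 6.43-fold from 24 reads (15.4 to 35.7) at 81 bp upstream, and the other, at chr17:15499125-15500205, of 6.05-fold from 38 reads (26.9 to 52.2) at 57 bp downstream. Psmb4 had a peak of 2.6-fold at 29 bp, with a q-value above 0.05.

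The immunoproteasome genes were all bound, 3 of 3 (29.2 to 100). Psmb10 had a peak at chr8:105937202-105938463 of 4.69-fold from 17 reads (9.9 to 27.2), 162 bp downstream of a start in the 5′ UTR. Psmb9 had a peak at chr17:34187178-34188474 of 4.15-fold from 22 reads (13.8 to 33.3). Its summit was 183 bp upstream of Psmb9 and 5 bp from the start of Tap1, the peptide transporter gene read from the opposite strand, so the peak cannot be given to either gene alone. Psmb8 had 2 peaks, 4.14-fold from 31 reads (21.1 to 44) at 940 bp upstream (chr17:34196403-34197120) and 3.28-fold from 20 reads (12.2 to 30.9) at 28 bp downstream (chr17:34197444-34198484). The median of the strongest peaks was 4.15 for these 3 genes, beside 4.74 (4.21 to 6.45) for the 20S core and 4.34 (3.82 to 5.92) for the 19S genes. The thymus subunit gene Psmb11, whose product replaces Psmb5 in cortical thymic epithelium, had no promoter peak. The nearest summit, at 3275 bp, was that of Psmb5. Psma8, the testis-specific alpha subunit gene, had a peak of 3.12-fold from 19 reads (11.4 to 29.7) at 2 bp from its start.

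Of the 17 genes of the 19S particle, 15 were bound, or 88.2% (63.6 to 98.5). All 6 ATPase genes had a peak within 500 bp. Psmc2 had the highest, at chr5:21784988-21785559, with 8.53-fold from 26 reads (17 to 38.1) at 42 bp downstream in the 5′ UTR. It had 2 further peaks, 6.23-fold from 23 reads at chr5:21786188-21787229, 1545 bp downstream, and 4-fold from 12 reads at chr5:21784521-21784745, 615 bp upstream. The last of these was nearer to the start of Dnajc2, at 486 bp. Psmc3 had a peak of 5.59-fold from 17 reads (9.9 to 27.2) at chr2:91053749-91054474, 103 bp upstream. Another of 5.92-fold from 19 reads at chr2:91060901-91061191 lay at 2953 bp, just inside the 3 kb limit. The remaining ATPase genes had 1 peak each, Psmc6 of 5.63, Psmc1 of 5.57, Psmc5 of 3.98 and Psmc4 of 3.43.

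Of the non-ATPase genes, 9 of 11 were bound and Psmd2 and Psmd3 were not. Psmd7, a scaffold partner of the deubiquitinase subunit, had the strongest peak, at chr8:107588055-107588726, with 6.6-fold from 24 reads (15.4 to 35.7) in the 5′ UTR. Psmd14, the deubiquitinase that removes ubiquitin from substrates, had 2 weak peaks of 14 reads each (7.65 to 23.5), 3.99-fold at chr2:61709638-61710003, 1910 bp upstream, and 3.92-fold at chr2:61712046-61712337, 415 bp downstream. Psmd11 had 2 peaks, 5.98-fold from 22 reads (13.8 to 33.3) at chr11:80427841-80428503, 392 bp upstream, and 3.57-fold from 16 reads at chr11:80428620-80428895, 75 bp downstream. Psmd13 had 2, of 4.34-fold from 16 reads (9.15 to 26) at chr7:140880626-140881232 and 3.99-fold from 15 reads at chr7:140882064-140882379, 920 bp upstream and 209 bp downstream, and both summits were nearer to the start of Sirt3. Psmd4, a ubiquitin receptor, had a peak of 4.35, and Psmd1, a scaffold of the base, one of 4.1. Psmd2, which also serves as a ubiquitin receptor, was one of the unbound genes. Psmd12 (3.82), Psmd8 (3.11) and Psmd6 (2.05) were the lowest. The Psmd6 peak had a −log10 q-value of 0.0848, far from a q-value of 0.05. Without the peaks above that q-value, 39 members remained bound, Psmb4 and Psmd6 being the ones lost.

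The core, 19S and immunoproteasome genes were not told apart by these counts. The 19S share exceeded the 20S share by 9.66 percentage points (Newcombe 95% interval -16.8 to 37.2) at 3 kb and by 25.2 (-6.54 to 52.3) at 500 bp, where 14 of 17 and 8 of 14 genes had a summit. Where the −log10 q-value had to reach 5 the order turned, with 6 of 17 and 6 of 14 genes and a difference of -7.56 points (-38 to 24.2). The immunoproteasome share exceeded that of the core by 21.4 points (-36.4 to 47.6) at 3 kb. With each peak given to its nearest gene alone it was lower by 4.76 points, since the Psmb9 peak then went to Tap1. With 3 genes, a difference of this size was not detectable.

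The 16 other members bear the symbols but lie outside these groups, and 12 of them were bound, or 75% (47.6 to 92.7). Of the assembly chaperones, which build the core and the base and then leave, 5 of 7 had a peak. Psmg2, a chaperone of the alpha ring, had 4 peaks and the highest enrichment of any member, 13.8-fold from 48 reads (35.4 to 63.6). That summit was 187 bp upstream of Psmg2 and 76 bp from the start of its divergent neighbor Cep76. On the pileup scale of the peak caller each Myb read counts 0.769. On that scale the local IgG background of the 13.8-fold Psmg2 peak was 1.76, beside 6 at the strongest Psme3 peak and 5 at the strongest Psma6 promoter peak. Those peaks had as many Myb reads, 51 and 49, with folds of 5.75 and 6.45. Another Psmg2 peak, of 7.35-fold from 25 reads at 742 bp upstream, was also nearer to Cep76, at 479 bp. The rest were of 3.71-fold from 18 reads at 672 bp downstream and 4.3-fold from 13 reads at 2705 bp downstream. Psmd5, a chaperone of the base, had a peak at chr2:34869347-34871538 of 6.06-fold from 25 reads (16.2 to 36.9). Psmd9 had 3 peaks. That of 4.47-fold from 13 reads at chr5:123167512-123167728 was 1736 bp upstream of the most upstream Psmd9 start, at chr5:123169413, with its summit in a 3′ UTR. The others lay far from it, near other starts of the gene. They were of 4.18-fold from 15 reads at chr5:123228664-123228895, 123 bp upstream, and 3.43-fold from 21 reads at chr5:123228243-123228521, 107 bp downstream. Psmg3 had one of 4.18 and Psmg1 one of 3.97.

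Of the activators that open the core in place of the 19S particle, 4 of 5 were bound. Psme4, the nuclear activator PA200, had a peak at chr11:30772154-30773881 of 6.03-fold from 18 reads (10.7 to 28.4) at 859 bp downstream in an intron. Psme3 had 2 peaks, 5.75-fold from 51 reads (38 to 67.1) at chr11:101315435-101316686, 454 bp upstream, and 2.35-fold from 14 reads at chr11:101317083-101317610, 307 bp downstream, with a q-value above 0.05. Psme1 and Psme2 encode the interferon-induced activator PA28. Psme1 had a peak of 3.14. Psme2 had 3 peaks, of which the strongest, 5.58-fold from 30 reads (20.2 to 42.8) at chr14:55584596-55586839, was 2320 bp downstream and nearer to Emc9. The others were of 3.33-fold from 16 reads at chr14:55590065-55590702 and 3.19-fold from 36 reads at chr14:55591137-55592062, 267 and 326 bp upstream. The summit with 36 reads was nearer to the start of Rnf31, at 269 bp. Psmf1, the gene of the proteasome inhibitor PI31, had 2 peaks in introns, 5.83-fold from 24 reads (15.4 to 35.7) at chr2:151741184-151742455, 192 bp upstream of a start, and 5.25-fold from 26 reads (17 to 38.1) at chr2:151742776-151743563, 1030 bp downstream. Psmc3ip, a meiotic recombination factor that is no subunit and entered by its symbol alone, had a peak at chr11:101095058-101096350 of 6.12-fold from 33 reads (22.7 to 46.3), 228 bp upstream.

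The 9 members without a promoter peak were Psma1, Psma4, Psmb2, Psmb11, Psmd2, Psmd3, Psmd10, Psme2b and Psmg4. The nearest summit to Psmb11, at 3275 bp, was just beyond the limit, as the Psmg2 summit at 2705 bp and the Psmc3 summit at 2953 bp were just inside it. The nearest summit to Psmb2 was further out, at 4698 bp. The Psmb2 summit was inside the gene and had 6.1-fold enrichment from 19 reads. For Psmd2 the nearest summit was 13305 bp away, at the start of Eif4g1, and for Psmd3 it was 18440 bp away, near Med24, with 9.3-fold enrichment. For the other 5 the nearest summit was 40572 to 331269 bp away. A gene without a peak is one where none was called at this depth, and weaker binding there was not detectable.

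A divergent neighbor, a protein-coding gene starting on the other strand within 1 kb, was present at 12 members (24%, beside 11% of all genes). The pairs were Psma2 with Mrpl32, Psma4 with AY074887, Psma7 with Ss18l1, Psmb1 with Tbp, Psmb9 with Tap1, Psmc2 with Dnajc2, Psmc5 with Ftsj3, Psmd1 with Htr2b, Psmd10 with Atg4a, Psmd13 with Sirt3, Psme2 with Rnf31 and Psmg2 with Cep76. Htr2b paired with another Psmd1 start than the one at the Psmd1 peak, and no Htr2b start was within 3 kb of that summit. Of these members 10 of 12 were bound, or 83.3% (51.6 to 97.9), close to the 76.3% of all genes with such a neighbor. Of the 38 without such a neighbor 31 were bound, or 81.6% (65.7 to 92.3), beside 35.4% of all genes without one.

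The full Myb consensus was no more frequent at the member summits than beside them. It lay within 50 bp of 5 of 61 summits, or 8.2% (2.72 to 18.1), beside 13.1% of windows of the same length centered 500 bp to either side. Over all promoter peaks it was in 14.4% of summit windows and 10.2% of flanks. The 5 peaks were those of Psma6 and Psmb3 shown above, the -103 bp peak of Psmc3, 1 of the Psmd9 peaks and the 4.3-fold Psmg2 peak. None of the 4 immunoproteasome summits held it (0%, with an upper limit of 60.2%). Of the 26 member peaks whose −log10 q-value reached 5, 11.5% held it, beside 13.5% of their flanks. With the shorter form AACNG, the share was 57.4% at the summits, 44.3% in the flanks and 50.5% at all promoter peaks.

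Promoter sequences from 250 bp before to 50 bp after the start were taken from RefSeq (GRCm38.p6) and matched 42 of the 50 members by symbol, with 45 windows among 20150 of protein-coding genes. Of 7 consensus motifs searched on both strands, the ETS motif CCGGAAG and the interferon element described further on had an interval in the members above both backgrounds. The ETS motif was in 16 of 45 windows, or 35.6% (21.9 to 51.2), beside 11.9% of all windows and 17.5% of CpG-rich ones. By group it was in 9 of the 14 matched 19S genes, 1 of the 11 core genes, 0 of the 3 immunoproteasome genes and 5 of the 14 others. This split was noticed in the data and has no test. Of the 15 genes with the motif, Psmd2 had no Myb promoter peak and the others had one, which is near the 82% of all members, and nothing is read from it. Within 50 bp of the summits themselves the motif was as rare at the members, in 3.28% of windows (0.4 to 11.3), as at all promoter peaks, in 2.89%. The flanks held it in 5.74% of windows at the members and in 1.21% at all promoter peaks. ETS factors are a family of activators that includes several of the main blood regulators.

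The promoters of 4 of these genes are shown, up to the first annotated exon, with the ETS motif in capitals, because the motif recurs across the 19S particle and an activator. Each is in mm10 and was read 5′ to 3′ on the strand of its gene. The Psmc6 window is chr14:45329574-45329787, plus strand. The Psmd11 window is chr11:80428365-80428614, plus strand, with the motif on the other strand. The Psmd4 window is chr3:95042615-95042864, minus strand. The Psme3 window is chr11:101315963-101316212, plus strand.
Psmc6: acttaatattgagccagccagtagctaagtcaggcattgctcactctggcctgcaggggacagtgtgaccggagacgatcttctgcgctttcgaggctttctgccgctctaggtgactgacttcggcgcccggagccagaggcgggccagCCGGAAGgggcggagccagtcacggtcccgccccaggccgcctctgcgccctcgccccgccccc
Psmd11: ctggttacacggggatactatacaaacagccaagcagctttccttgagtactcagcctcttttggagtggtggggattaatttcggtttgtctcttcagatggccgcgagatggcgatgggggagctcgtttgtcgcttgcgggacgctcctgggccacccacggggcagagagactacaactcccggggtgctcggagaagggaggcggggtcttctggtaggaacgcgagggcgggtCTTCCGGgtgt
Psmd4: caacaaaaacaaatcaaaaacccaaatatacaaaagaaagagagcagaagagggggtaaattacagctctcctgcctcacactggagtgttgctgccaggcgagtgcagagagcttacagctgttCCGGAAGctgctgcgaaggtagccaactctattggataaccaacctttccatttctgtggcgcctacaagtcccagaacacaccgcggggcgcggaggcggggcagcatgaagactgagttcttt
Psme3: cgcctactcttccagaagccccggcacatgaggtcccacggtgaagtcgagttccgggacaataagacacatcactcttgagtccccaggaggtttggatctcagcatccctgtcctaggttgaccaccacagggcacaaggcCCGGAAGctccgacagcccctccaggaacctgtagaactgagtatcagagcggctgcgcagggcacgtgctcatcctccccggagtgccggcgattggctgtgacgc

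The antioxidant response element, TGACNNNGC, is the known site of the Nfe2l1 factor that raises proteasome genes when the protease is inhibited. It was in 6 of 45 member windows, or 13.3% (5.05 to 26.8), beside 13.1% of all windows. The 6 genes were Psmb5, Psmb6, Psmc6, Psmd9, Psmd12 and Psme4. The promoters of the catalytic genes Psmb5 (chr14:54618023-54618245, minus strand) and Psmb6 (chr11:70525107-70525366, plus strand) are shown on the strand of the gene with the element in capitals, since in both it lay close to the start and downstream of the Myb summit.
Psmb5: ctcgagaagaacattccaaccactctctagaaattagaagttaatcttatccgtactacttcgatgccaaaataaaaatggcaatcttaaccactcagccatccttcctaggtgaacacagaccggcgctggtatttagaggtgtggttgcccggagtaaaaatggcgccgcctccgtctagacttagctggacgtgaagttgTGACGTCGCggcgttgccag
Psmb6: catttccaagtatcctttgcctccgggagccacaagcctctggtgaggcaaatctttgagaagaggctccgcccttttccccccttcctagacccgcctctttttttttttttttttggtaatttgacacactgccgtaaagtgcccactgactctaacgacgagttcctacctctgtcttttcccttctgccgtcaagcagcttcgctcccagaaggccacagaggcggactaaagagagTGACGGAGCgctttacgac

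The interferon-stimulated response element, searched as GAAA followed after 2 bases of any kind by another GAAA, was in 5 of 45 member windows, or 11.1% (3.71 to 24.1), beside 3.42% of all and 2.39% of CpG-rich windows. The genes were Psmb3, Psmd4, Psmd9, Psme1 and Psmg4, and these letters were not in the windows of the 3 immunoproteasome genes. The Psmb3 promoter, chr11:97703184-97703398, plus strand, is shown with this element in capitals on the minus strand of the window.
Psmb3: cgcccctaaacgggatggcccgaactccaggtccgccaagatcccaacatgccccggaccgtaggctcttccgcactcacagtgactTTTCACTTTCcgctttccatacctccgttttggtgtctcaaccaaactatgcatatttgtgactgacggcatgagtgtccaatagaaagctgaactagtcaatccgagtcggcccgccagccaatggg

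The other motifs lay near their backgrounds. CCAAT, the NFY motif, was in 33.3% of member windows and 37.8% of all. GGGCGG, the SP motif, was in 53.3%, beside 47.8% of all and 67.4% of CpG-rich windows. The NRF1 motif, GCGC followed after 2 bases of any kind by GCGC, was in 15.6%, beside 8.89% and 14.6%. The Myb consensus was in 22.2%, beside 26.3% and 23.4%.

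**Figure D4:**
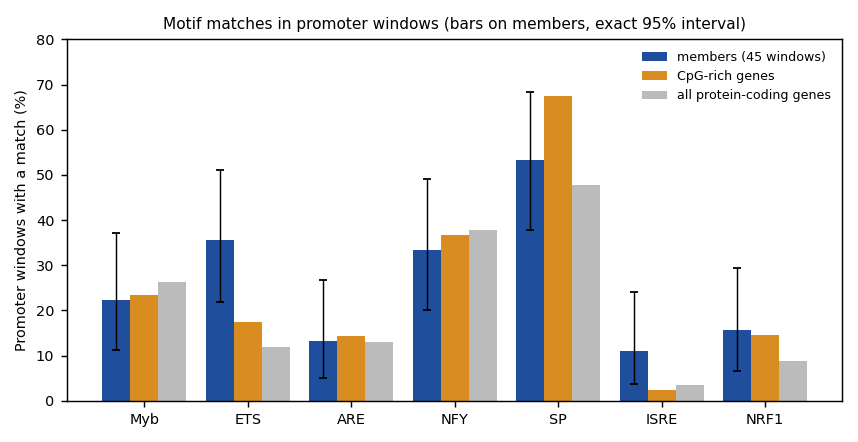
Share of promoter windows (y axis, %) that hold each of 7 motifs for the members, CpG-rich genes and all protein-coding genes; lines on the member bars are exact 95% binomial intervals. The ETS bar of the members is 35.6%, beside 17.5% and 11.9%, and the Myb bar is 22.2%, beside 23.4% and 26.3%.

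Genes that work with the proteasome but bear other symbols were bound to a like extent. Of 35 such genes, 30 had a promoter peak, or 85.7% (69.7 to 95.2), beside the 39.9% of all genes. All 6 genes of ubiquitin and its activation were bound, and Ubb, a polyubiquitin gene, had 16.8-fold enrichment from 64 reads (49.3 to 81.7), above every member. Of the shuttle genes, which carry ubiquitinated proteins to the particle, 4 of 5 were bound, with Ubqln4 at 8.12. All 3 genes of the Vcp segregase were bound (Vcp 5.29, Ufd1 4.91, Nploc4 4.79). All 5 peptide loading genes were bound, with B2m, the light chain of MHC class I, at 9.13 from 36 reads and Tapbp at 8.21. The only Tap1 peak is the one counted above for Psmb9, so the member and pathway counts share it.

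All 5 assembly and adaptor genes were bound, with 6.65 at Akirin2, which brings proteasomes into the nucleus, and 3.74 at Pomp, the maturation chaperone of the core. Of the genes that edit or remove ubiquitin at the particle, 3 of 4 were bound, with Uchl5 at 8.4 and Usp14 at 7.59. Among the genes of transcriptional control, Nfe2l2 had 8.76-fold enrichment from 67 reads (51.9 to 85.1), and Ngly1 had 6.34. The highest of 3 peaks at Nfe2l1 was of 3.16-fold from 10 reads (4.8 to 18.4), with a q-value above 0.05. At a q-value of at most 0.05 all 30 bound genes of the list kept a peak, so another Nfe2l1 peak met that limit. The 5 genes without a peak were Ddi2 and Nfe2l3 of transcriptional control, the ubiquitin receptor Adrm1, the ligase Ube3c and the shuttle gene Ubqln2. Sem1, the small lid subunit, was bound at 5.98. With a −log10 q-value of 5 or more, 20 of the 35 kept a peak, or 57.1% (39.4 to 73.7), beside 40% of the members, 24.3% of all genes and 40.1% of CpG-rich genes, the last of which lies inside that interval.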

How the data were processed

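Myb ChIP-Seq was analysed from 1 peak list, and the IgG library was used only as the background of the peak caller. Per the submitters' processing notes and the study's methods, the authors trimmed reads with cutadapt (v1.15), aligned them to mm10 with BWA (v0.7.13), removed duplicates with Picard and called peaks with MACS2 (v2.1.1.20160309). Peaks were kept by overlap of pseudo-replicates, which are subsets of the reads of 1 library. The study's methods give a q-value below 0.05 for these calls. The deposited list also held peaks above that value, 938 of the 13250 promoter peaks of protein-coding genes. They were kept here unless stated. The 8758 genes with a promoter peak were counted on that list and are not the study's own set of Myb targets. In the deposited list the fold enrichment is a ratio to IgG, the p-value and q-value are −log10 values, and the last column is the summit offset. The deposited score was not used.

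Summits were assigned to GENCODE vM21 starts with Python 3.11.15, pandas 2.3.3, numpy 2.4.6 and scipy 1.17.1. Read numbers were recovered from fold enrichment and p-value with 1 pileup scale (0.769), which gave whole reads in 100% of rows within a tolerance of 0.002, and for 1.245% of rows more than 1 number was possible and the closest was used. The step was tested on simulated data. Library depth is not given in the list. Differences of shares have Newcombe intervals (statsmodels 0.14.6). Shares have exact (Clopper-Pearson) 95% intervals and medians exact order-statistic intervals. Both cover counting error only, since neighboring peaks, genes with shared peaks and PCR copies are not independent. No p-value was computed across genes or peaks, which are not replicates.

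The members, the pathway list, the motifs and the naming rule were chosen with earlier results of these data known. By that rule, folds, reads and positions were given for the catalytic genes, the 10 members with the highest enrichment and members with 2 or more peaks, and the rest by role. Of the pathway symbols, Paaf1 was not matched. Some genes of that list are not reported here by name. Alternatives were windows of 1 kb and 500 bp, q-value limits, other choices of starts and of the nearest gene, a CpG-rich background and other forms of the motif.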

Additional observations from a re-analysis of the deposited data

How the results depend on the processing

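At a −log10 q-value of at least 5, 20 members had a promoter peak, of which 6 were core, 6 19S, 1 immunoproteasome and 7 other genes, and the median fold enrichment of the member peaks was 6. With CpG-rich genes as the background, the share of genes with a promoter peak was 63.9%. The share of member summits with the Myb consensus was 21.3% within 100 bp, 57.4% for AACNG and 24.6% for CAACNG or TAACNG, beside 26.2%, 44.3% and 22.1% in the flanks. Under the other window, start, nearest-gene and q-value settings run, the member counts stayed within 1.5 times their values and ranged from 36 to 42. No paired analysis was possible because there was 1 library per antibody. Depth limits the weakest peaks, which rest on as few as 12 reads, and a library of another mouse was not analysed here.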

Other observations

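Several members had Myb peaks inside the gene but beyond 3 kb of any start. Inside means between the outermost ends of all GENCODE transcripts of the gene. There were 8 such peaks in 6 genes. The highest was in Psma6, at chr12:55387342-55390324, with 11.4-fold enrichment from 46 reads (33.7 to 61.4) at 4607 bp from the nearest start, above both of its promoter peaks. Psmd9 had 2, of 8.03-fold from 30 reads (20.2 to 42.8) and 6.08-fold from 22 reads, each above its promoter peaks. These Psma6 and Psmd9 peaks lay upstream of a RefSeq promoter window of their gene, which ended at chr12:55398774 and chr5:123228189. They count as inside only through transcripts that start further upstream. Psmb2, which had no promoter peak, had 1 of 6.1-fold. Psma2 had 2, of 5.4 and 3.7, and Psmd14 and Psma3 had 1 each, of 3.41 and 2.91.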
